A study of Homo sapiens with 8 samples.

Results

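The aldo-keto and carbonyl reductases are enzymes that reduce aldehydes and ketones to alcohols with NADPH. The group described here was a list of 10 gene symbols, namely AKR1A1, AKR1B1, AKR1B10, AKR1C1, AKR1C2, AKR1C3, AKR7A2, CBR1, CBR3 and CBR4, and its members were found through the transcript accession that the array design gives each probe. A probe was matched for 9 of the 10 genes, among 19046 genes kept on the arrays, and no probe was matched for AKR1C2, so it has no value here. Of the 9 genes, 8 were well above background on all 8 arrays by the scanner software's call, and CBR3 was on 6.

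Gene expression was measured in A549 cells, an established human lung carcinoma line, on 8 one-colour Agilent whole-genome arrays. One series of 4 arrays held a vehicle control and cells exposed to 1.25, 5 or 20 μg/mL of EEDS, the ethanol extract of Descurainia sophia seeds. The other series of 4 arrays held its own vehicle control and cells exposed to 3.75, 15 or 60 nM of helveticoside, a cardiac glycoside that the study isolated from EEDS. RNA of triplicate experiments was pooled before labelling, each dose had 1 array, and the labels and the methods give different exposure times. The doses therefore have no replicate error, a single dose has no p-value, and the agents cannot be told apart from the series they were run in. The series differed somewhat in brightness, with a median scanned signal of 182 to 214 in the EEDS series and 223 to 278 in the helveticoside series. Of the probe spots, 65.3% to 66.9% were well above background in the EEDS series and 56.9% to 61.6% in the helveticoside series. The epithelial markers KRT8, KRT18, KRT19 and EPCAM were well above background on all 8 arrays, whereas CD3E and PECAM1 were on 0 of 8. PTPRC, a blood cell marker, and COL1A1, a fibroblast marker, were nevertheless called well above background on all 8 arrays, at log2 signals of 5.95 to 7.28 and 7.27 to 9.15. KRT8, KRT18 and KRT19 fell with the dose of EEDS, and KRT18 and KRT19 with that of helveticoside; their part in the results below was not tested. In RNA from a whole culture, fewer cells of a kind and less RNA per cell cannot be told apart.

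The genes belong to different protein families. The AKR genes encode cytosolic aldo-keto reductases that handle sugars, lipid aldehydes, steroids and prostaglandins, and the CBR genes encode short-chain dehydrogenase/reductases that act on quinones, prostaglandins and drug carbonyls such as those of anthracyclines. AKR1B10 and the AKR1C genes are well-known targets of the transcription factor NRF2, whose repressor KEAP1 is mutated in A549 cells, and these cells are known for high reductase levels. Several members are neighbours in the genome: AKR1B1 and AKR1B10 lie beside AKR1B15, AKR1C1, AKR1C2 and AKR1C3 lie in a cluster with AKR1C4, AKR7A2 lies beside AKR7A3, and CBR1 and CBR3 follow each other among the protein-coding genes.

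The promoters of the AKR1C genes show how close these copies are, and they include AKR1C2, which had no probe. The RefSeq table (GRCh38.p14) holds windows from 250 bases before to 50 bases after a start for 8 of the 10 genes; AKR1B10 and CBR3 have no entry. A stretch of 150 bases is given for AKR1C1 (chr10:4963265-4963414, plus strand), AKR1C2 (chr10:5003858-5004007, minus strand) and AKR1C3 (chr10:5048631-5048780, plus strand), each written 5′ to 3′ on the gene's strand. The capitals mark ATTGG, which reads CCAAT on the opposite strand. It begins 77, 81 and 73 bases before the starts used here for AKR1C1, AKR1C2 and AKR1C3. AKR1C3 also has a window of another start (chr10:5094164-5094463), with ATTGG 86 bases before it, which is not shown or aligned. Which start gives the transcript that the array probe reads was not tested.
AKR1C1: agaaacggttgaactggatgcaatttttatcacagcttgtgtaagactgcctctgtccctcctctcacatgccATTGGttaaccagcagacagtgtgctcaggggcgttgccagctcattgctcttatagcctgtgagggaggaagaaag
AKR1C2: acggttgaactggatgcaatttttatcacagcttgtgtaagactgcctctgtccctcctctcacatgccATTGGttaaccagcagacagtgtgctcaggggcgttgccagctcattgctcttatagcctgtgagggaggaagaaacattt
AKR1C3: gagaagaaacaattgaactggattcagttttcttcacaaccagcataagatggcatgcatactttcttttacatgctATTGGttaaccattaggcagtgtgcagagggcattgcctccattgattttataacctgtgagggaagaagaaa
In a global alignment of these stretches, AKR1C1 and AKR1C2 were identical at 145 of 154 columns (94.2%), AKR1C1 and AKR1C3 at 113 of 155 (72.9%), and AKR1C2 and AKR1C3 at 109 of 159 (68.6%). The stretches are offset against each other. Columns where a stretch runs past the end of the other count as not identical, so these percentages understate the match over the shared bases.

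The promoters of AKR7A2 (chr1:19312147-19312346, minus strand) and CBR1 (chr21:36069824-36070023, plus strand) are given because they were the members with a match to the core of the antioxidant response element, the site that NRF2 is known to bind. The capitals mark TGACNNNGC read on either strand, which occurs 3 times in AKR7A2, beginning 167, 156 and 95 bases before the start, and once in CBR1, beginning 159 bases before it.
AKR7A2: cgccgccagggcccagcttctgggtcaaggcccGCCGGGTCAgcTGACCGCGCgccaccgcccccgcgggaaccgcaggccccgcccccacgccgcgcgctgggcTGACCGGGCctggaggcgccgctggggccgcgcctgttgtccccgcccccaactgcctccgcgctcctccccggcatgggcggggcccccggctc
CBR1: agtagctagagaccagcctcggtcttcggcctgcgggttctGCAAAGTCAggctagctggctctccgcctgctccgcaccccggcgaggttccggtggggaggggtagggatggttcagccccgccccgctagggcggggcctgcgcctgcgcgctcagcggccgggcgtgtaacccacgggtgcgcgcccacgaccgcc
The motifs were searched on both strands of the windows. A gene was counted when any of its windows held a match, since some genes have several starts: the 8 members have 11 windows, and the table holds 35116 windows of 27305 genes. TGACNNNGC was found in 2 of the 8 members, in 16.1% of all genes and in 13.3% of all windows. The AP-1 site TGANTCA was found in 0 of 8 members, 9.37% of genes and 7.71% of windows. CCAAT was found in 4 of 8 members (AKR1B1 and the 3 AKR1C genes), 39.7% of genes and 34.6% of windows. The GC box GGGCGG was found in 4 of 8 members (AKR1A1, AKR1B1, AKR7A2 and CBR1), 48.3% of genes and 45% of windows. A match is a run of letters and not a measured site, and these arrays did not measure binding.

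At the middle and top doses of both agents, all 9 measured genes were lower than on the control array of their own series. Of all 19046 genes, 8624 and 8625 were lower at 5 and 20 μg/mL EEDS, and 11033 and 9700 at 15 and 60 nM helveticoside. The median log2 ratio of the 9 genes was 0.02, -0.72 and -1.46 at 1.25, 5 and 20 μg/mL EEDS, and -0.08, -0.69 and -1.78 at 3.75, 15 and 60 nM helveticoside. Over all 19046 genes the medians lay between -0.04 and 0.02. At the top dose, 7 of 9 genes were more than 2-fold lower with EEDS, against 14.5% of all genes, and 8 of 9 with helveticoside, against 12.8%. The same 7 genes passed 2-fold with both agents, against 9.66% of all genes, and AKR7A2 stayed within 2-fold at every dose. The shares were much the same when counted over the 11498 genes that every array called well above background, at 16.2% with EEDS, 13.3% with helveticoside and 11.3% with both. On the top-dose arrays 0 of 9 genes were more than 2-fold higher with either agent, against 13.3% of all genes with EEDS and 10.8% with helveticoside. The lowest doses showed less. At 1.25 μg/mL EEDS, 3 of 9 genes were lower than the control (8486 of all 19046 genes), and CBR3 alone was past 2-fold (3.66% of all genes). At 3.75 nM helveticoside, 6 of 9 were lower (8622 of all 19046 genes) and 0 of 9 past 2-fold (4.31% of all genes).

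**Figure D1:**
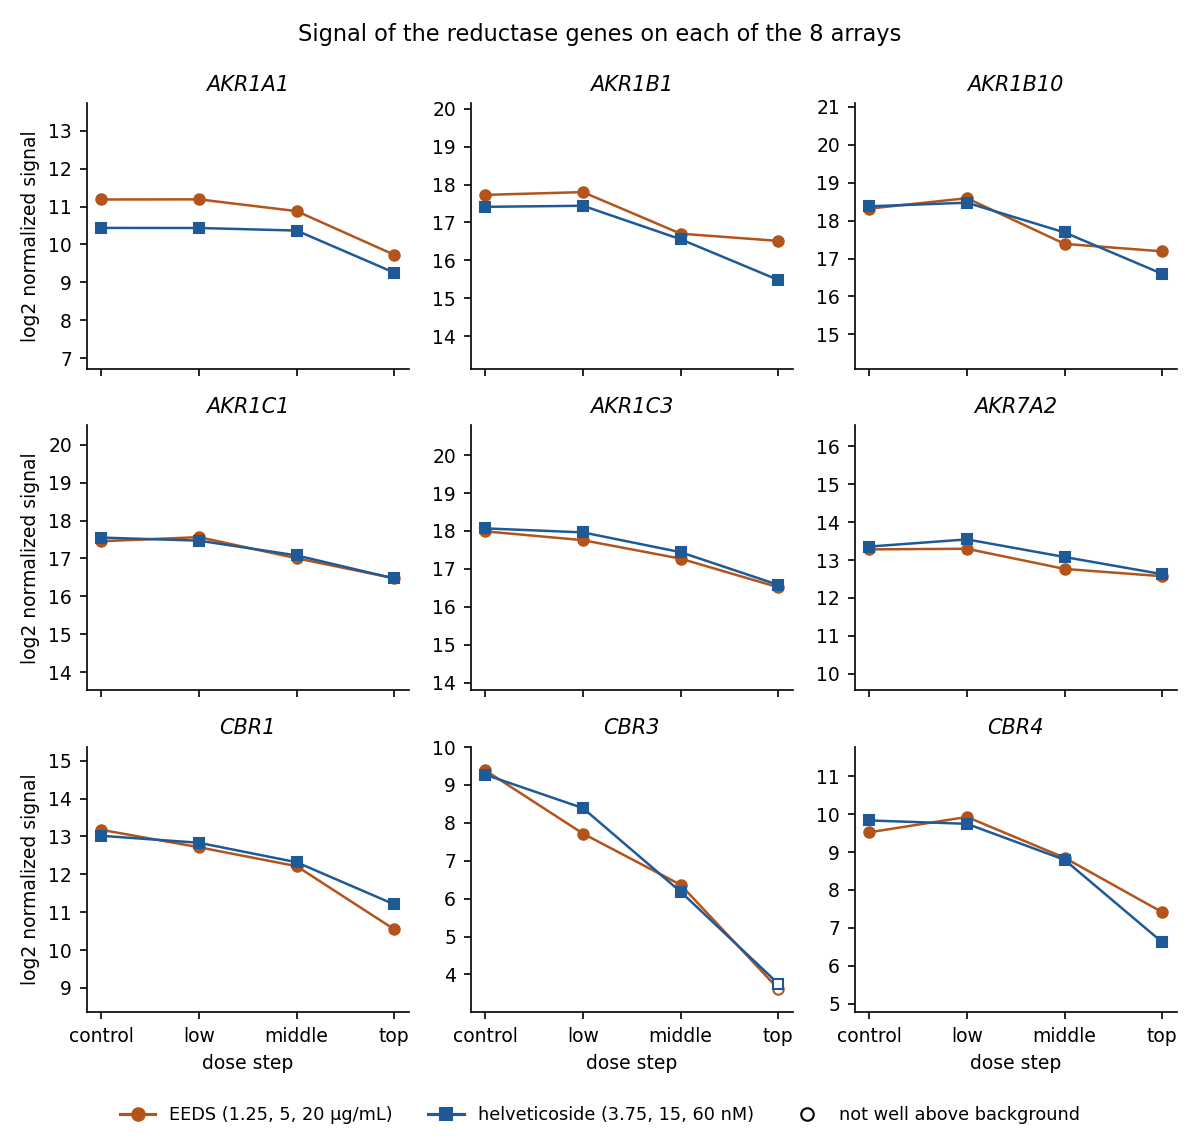
Log2 quantile-normalized signal (vertical axis, the same span in every panel) of the 9 reductase genes with a probe, at the control and the low, middle and top dose (horizontal axis) of EEDS (circles) and helveticoside (squares), 1 array per point. Every gene is lower at the middle and top doses than at its control, and CBR3 drops the farthest, from 9.39 to 3.62 with EEDS and from 9.27 to 3.76 with helveticoside, where its probe is not well above background (open symbols).

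AKR1A1 encodes aldehyde reductase, which reduces many aldehydes including glucuronate. Its log2 signal was 11.19 on the EEDS control, 11.19 at 1.25 μg/mL, 10.88 at 5 μg/mL and 9.73 at 20 μg/mL. It was 10.44 on the helveticoside control, 10.43 at 3.75 nM, 10.37 at 15 nM and 9.25 at 60 nM. The gene was near its control until the top dose, where it stood at 36.3% of the control with EEDS and 44.1% with helveticoside. Only 21.0% of the top-dose log2 change was reached at 5 μg/mL and 5.94% at 15 nM. The control arrays themselves differed by -0.75 (helveticoside minus EEDS) on the log2 scale, the largest such gap among the 9 genes. Against the other series' control, the top-dose ratio was -0.71 with EEDS and -1.93 with helveticoside, in place of -1.46 and -1.18.

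AKR1B1 encodes aldose reductase, the first enzyme of the polyol pathway from glucose to sorbitol. From the EEDS control to 20 μg/mL the log2 signal was 17.73, 17.80, 16.70 and 16.51. With helveticoside it was 17.41, 17.44, 16.56 and 15.48 from the control to 60 nM. The lowest dose of both agents lay close to the control and both higher doses lay below it. With EEDS most of the change was present at the middle dose, where the log2 ratio was -1.02 and already 84.3% of the top-dose value of -1.21, whereas with helveticoside the middle dose had -0.86, which was 44.3% of -1.93. At the top dose the signal was 2.32-fold lower with EEDS and 3.81-fold lower with helveticoside.

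AKR1B10, a relative of AKR1B1 that reduces retinal and lipid aldehydes, is known for its high expression in lung tumours of smokers. Its log2 signal was 18.32, 18.59, 17.39 and 17.19 over the EEDS arrays. It was 18.38, 18.47, 17.69 and 16.60 over the helveticoside arrays. At the lowest dose it was slightly above the control with both agents, with log2 ratios of 0.27 and 0.10. Its top-dose signal was 2.19-fold and 3.44-fold lower. A second AKR1B10 probe gave top-dose log2 ratios of -1.18 and -1.94, close to the -1.13 and -1.78 of the first.

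Of all pairs of members well above background on all arrays, AKR1B1 and AKR1B10 had the most alike pattern, with a root mean square difference of 0.136 log2 over the 6 treated arrays. The next closest pair, AKR1C1 and AKR7A2, had 0.231. The neighbouring gene AKR1B15, which was not on the list, had log2 ratios of 0.08 at the lowest and -1.38 at the top dose of EEDS, and 0.01 and -2.11 for helveticoside. Transcripts of AKR1B10 and AKR1B15 are much alike, and which of them each probe bound was not tested.

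AKR1C1 encodes a hydroxysteroid dehydrogenase that inactivates progesterone. Over the EEDS arrays, in order of dose, AKR1C1 had log2 signals of 17.45, 17.56, 17.00 and 16.48. Over the helveticoside arrays it had 17.55, 17.47, 17.08 and 16.47. The gene stepped down from the middle dose on, to 50.8% of the control at 20 μg/mL and 47.3% at 60 nM. A second AKR1C1 probe dropped further, with log2 ratios of -0.42, -0.84 and -1.81 with EEDS and -0.21, -0.52 and -1.42 with helveticoside. With the mean of both probes, AKR1C1 passed 2-fold with EEDS as well, at a top-dose log2 ratio of -1.39.

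AKR1C3 makes testosterone from androstenedione and prostaglandin F from prostaglandin D. Its log2 signal was 17.99, 17.76, 17.27 and 16.51 over the EEDS arrays. It was 18.07, 17.96, 17.44 and 16.58 over the helveticoside arrays. Each dose of both agents lay below the dose before it, and the agents ended at nearly the same place, 36.0% and 35.6% of the control. The controls differed by 0.08 log2, far less than the top-dose ratios of -1.47 and -1.49. AKR1C4, a further gene of the cluster and best known from liver, had a probe with log2 ratios of -0.55, -1.21 and -2.32 with EEDS and -0.21, -0.82 and -1.97 with helveticoside. Its other probe was well above background on 1 of 8 arrays, and how far the probes of this gene family take up each other's transcripts was not tested.

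AKR7A2, which reduces succinic semialdehyde and the dialdehyde of aflatoxin, changed the least. The EEDS arrays gave log2 signals of 13.28, 13.30, 12.77 and 12.57. The helveticoside arrays gave 13.36, 13.54, 13.08 and 12.63. It was the member with 10 spots on each array, and the SD between these spots was 0.03 to 0.07 log2, which covers technical error within an array only. The gene was at 61.2% of the control at 20 μg/mL and 60.3% at 60 nM. Its neighbour AKR7A3 was the gene with the most similar pattern among 11490 genes that were well above background on all arrays, at a root mean square difference of 0.0570. Whether the probes of AKR7A2 and AKR7A3 take up each other's transcripts was not tested.

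CBR1, the main cytosolic carbonyl reductase, reduces prostaglandin E and anthracyclines. Its log2 signal was 13.17, 12.71, 12.21 and 10.55 over the EEDS arrays. It was 13.02, 12.83, 12.32 and 11.21 over the helveticoside arrays. Every dose lay below the one before it in both series. Its top-dose signal was at 16.2% of the control with EEDS (6.18-fold lower) and at 28.5% with helveticoside (3.51-fold lower).

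CBR3, the closest relative of CBR1, showed the largest change of the 9 genes. From the control upward, the EEDS arrays had log2 signals of 9.39, 7.72, 6.37 and 3.62. The helveticoside arrays had 9.27, 8.39, 6.18 and 3.76. With EEDS it stood at 31.5% of the control at 1.25 μg/mL and at 12.3% at 5 μg/mL. With helveticoside it stood at 54.2% at 3.75 nM and at 11.8% at 15 nM. On both top-dose arrays its probe was not well above background, so the level there has only a bound. The bound was counted against the lowest signal of any probe well above background on those arrays. On the background-subtracted signal used here, it was 23.9-fold lower at 20 μg/mL and 13.9-fold lower at 60 nM (log2 ratios of -4.58 and -3.80). The measured log2 ratios were -5.77 and -5.52. Both these ratios and the bounds depend on the background correction. With the signal as scanned the ratios were -2.94 and -2.82, smaller changes than the bounds.

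CBR4 encodes a subunit of the mitochondrial ketoacyl reductase of fatty acid synthesis and also reduces quinones. Its log2 signal was 9.52, 9.93, 8.85 and 7.41 over the EEDS arrays. It was 9.83, 9.74, 8.79 and 6.62 over the helveticoside arrays. At 1.25 μg/mL EEDS the gene was above its control by 0.40 log2, a size close to the 0.31 by which the controls differed. Its signal at the top dose was 4.31-fold lower with EEDS and 9.28-fold lower with helveticoside. This gap between the agents depends on the processing. The log2 ratios were -2.11 and -3.21 here, -1.74 and -2.44 for the signal as scanned, and -2.07 and -2.17 for the authors' processed values. About the same part of the top-dose log2 change was reached at the middle dose with both agents, 31.9% and 32.3%.

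**Figure D2:**
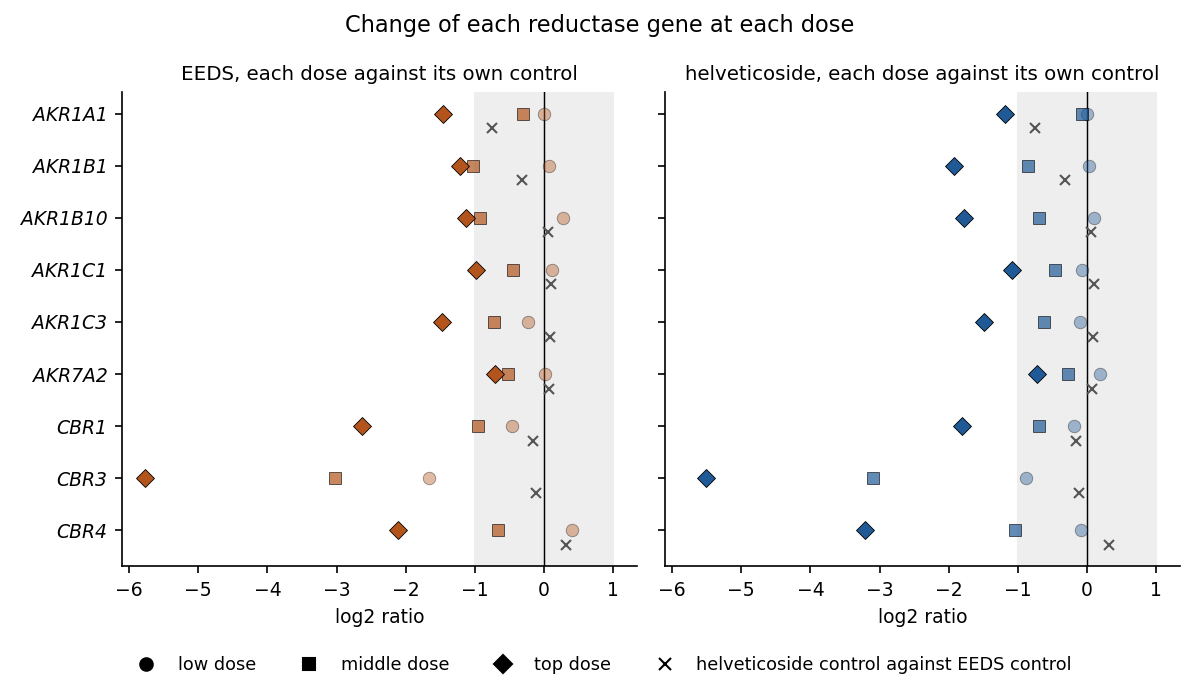
Log2 ratio of each dose to its own control (horizontal axis) for the 9 genes with EEDS (left) and helveticoside (right); circles, squares and diamonds are the low, middle and top dose, crosses the helveticoside control against the EEDS control, and the grey band marks changes within 2-fold. All diamonds and squares lie left of 0, and the crosses reach -0.75 for AKR1A1.

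At the middle doses, AKR1B1 and CBR3 were past 2-fold with EEDS (2 of 9, against 8.47% of all genes), and CBR3 and CBR4 with helveticoside (2 of 9, against 8.06%). AKR1C3, CBR1 and CBR3 were lower than the control at all 3 doses of both agents, a pattern that 16.5% of all genes showed. For genes well above background on both control arrays, the difference between the controls had an SD of 0.50 log2. All control differences of the 9 genes other than that of AKR1A1 were smaller than this, at -0.32 to 0.31.

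A slope on the dose step was then fitted with limma over all 8 arrays, with a 4-fold dilution as 1 step. In this fit the scatter of the arrays about the lines stands in for replicates. That scatter mixes differences between the pooled cultures, array error and any departure from a straight line, which cannot be told apart here. The p-values therefore do not measure the spread between replicate cultures of a dose. After Benjamini-Hochberg adjustment over all genes, 3 of 9 genes fell with the dose of EEDS (AKR1C3, CBR1 and CBR3), against 7.85% of all genes, and 3 of 9 fell with that of helveticoside (AKR1B1, AKR1C3 and CBR3), against 5.8%. AKR1C3 and CBR3 fell with both agents. The count depended on the signal used: it was 6 of 9 with EEDS (9.85% of all genes) and 7 of 9 with helveticoside (7.26%) for the signal as scanned, and 7 of 9 (14.4%) and 6 of 9 (4.79%) for the authors' processed values. With either agent 0 of 9 genes rose, where 7.27% of all genes rose with EEDS and 5.48% with helveticoside. Without adjustment, all 9 genes had a slope below 0 past the threshold in limma with EEDS, as had 17% of all genes, and 8 had one with helveticoside, as had 15.2% of all genes. AKR1A1 did not pass with helveticoside.

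CBR3 fell by 1.87 ± 0.21 (SE) log2 per step with EEDS (limma, adjusted p = 0.0137) and by 1.88 ± 0.21 with helveticoside (adjusted p = 0.0169). Its measured top-dose values, which were not well above background, were kept in the fit. The size of the CBR3 slope depends on the background correction: with the signal as scanned it was -0.96 ± 0.09 with EEDS. AKR1C3 fell by 0.49 ± 0.09 per step with EEDS (limma, adjusted p = 0.0270) and by 0.50 ± 0.09 with helveticoside (adjusted p = 0.0307). CBR1 fell by 0.84 ± 0.16 with EEDS (limma, adjusted p = 0.0284), and its helveticoside slope of -0.59 ± 0.16 did not pass (adjusted p = 0.0697). AKR1B1 fell by 0.67 ± 0.14 with helveticoside (limma, adjusted p = 0.0447), and its EEDS slope of -0.47 ± 0.14 did not pass (adjusted p = 0.0832). The slopes of AKR1A1, AKR1B10, AKR1C1, AKR7A2 and CBR4 were also below 0 with both agents, between -0.27 for AKR7A2 and -1.06 for CBR4, with adjusted p from 0.0520 to 0.217. With the lowest, the middle or the top dose left out of both series, or with a series fitted on its own 4 arrays, 0 of 9 genes passed, and so did 0 of all 19046 genes. In those fits all 9 slopes stayed below 0 with both agents. That of CBR3 with EEDS was -1.86, -1.94 and -1.51 without the lowest, middle and top dose, and that of AKR1C3 was -0.47, -0.51 and -0.36.

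**Figure D3:**
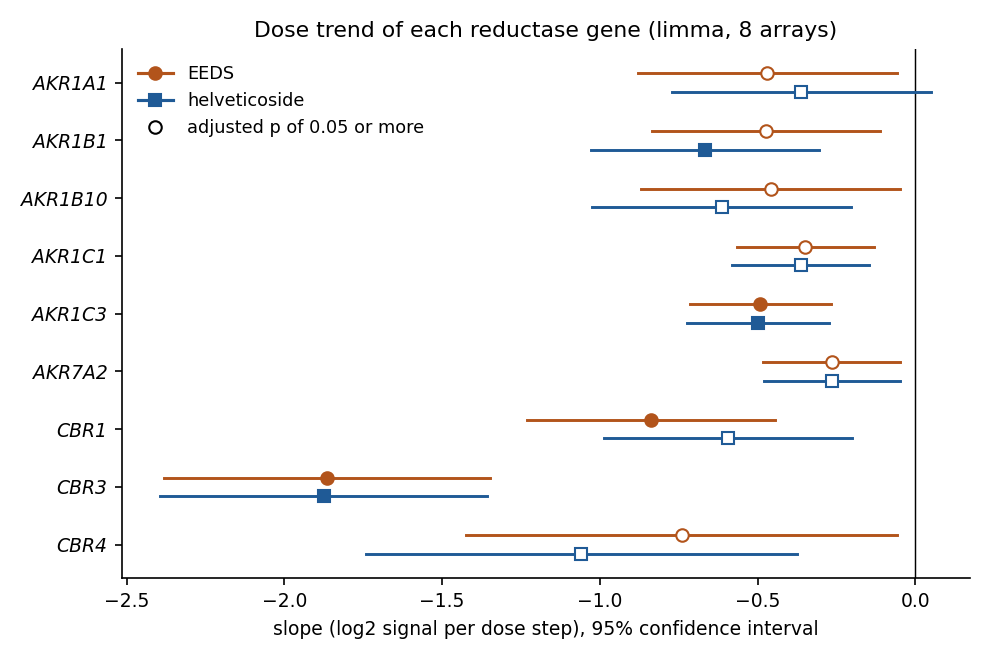
Slope of the log2 signal per 4-fold dose step with its 95% confidence interval (limma, 8 arrays) for the 9 genes with EEDS (circles) and helveticoside (squares); filled symbols have an adjusted p under 0.05. CBR3 has the steepest slope with both agents, at -1.87 and -1.88, and the intervals of the agents overlap for every gene.

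The slopes of the agents did not pass the test of a difference for any of the 9 genes, with an adjusted p of 1 for each (limma) and 0 of 9 under 0.05 without adjustment, where 2.76% of all genes were. The doses are not matched, so this compares the change per 4-fold step and not potency. The intervals show what such a test leaves possible. For AKR1C1 the difference of the slopes, EEDS minus helveticoside, was 0.01 log2 per step with a 95% confidence interval of -0.29 to 0.32, and for AKR1C3 it was 0.01 with -0.31 to 0.33. CBR3 had 0.01 with -0.72 to 0.74, and CBR4, the widest, had 0.32 with -0.65 to 1.28. The CBR3 difference rests in part on top-dose values that were not well above background. With the authors' processed values it was -0.66 ± 0.13 (limma, p = 0.000797 without adjustment, adjusted p = 0.825). A p above the threshold does not show that the agents act alike on these genes.

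Other genes of the 2 enzyme superfamilies, taken from lists chosen with earlier results of these data known, were counted in the same way. Of 9 other aldo-keto reductase genes 8 had a probe. At the top dose 2 of the 8 were more than 2-fold lower with both agents (AKR1B15 and AKR1C4), against 9.66% of all genes. The median log2 ratio of the 8 was -0.13 with EEDS and -0.29 with helveticoside, but 4 of them were not well above background on all arrays. Over the other 4 (AKR1B15, AKR1C4, AKR7A3 and AKR1E2) it was -1.06 and -1.35, beside -1.34 and -1.64 over the 8 listed reductases read on all arrays. AKR1B15, AKR1C4 and AKR7A3 are neighbours of members, and whether their probes take up the members' transcripts was not tested. AKR1E2 had -0.25 and -0.57. AKR1C4 fell with both agents (limma, adjusted p = 0.0179 and 0.0279), and AKR1B15 fell with helveticoside (adjusted p = 0.0439) and did not pass with EEDS (adjusted p = 0.0768). KCNAB1, a potassium channel subunit of this superfamily, was past 2-fold higher with EEDS but was well above background on no array.

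Of 46 other short-chain dehydrogenase/reductase and carbonyl-handling genes 45 had a probe. At the top dose 11 of 45 were more than 2-fold lower with EEDS (14.5% of all genes) and 11 of 45 with helveticoside (12.8%). With both agents 7 of 45 were (9.66%). The medians were -0.31 and -0.27, or -0.40 and -0.36 over the 38 genes read on all arrays. With EEDS 4 of 45 genes fell with the dose (7.85% of all genes) and 1 of 45 rose (7.27%). With helveticoside 5 of 45 fell (5.8%) and 2 of 45 rose (5.48%). HPGD, which inactivates prostaglandins, had top-dose log2 ratios of -2.50 and -3.10 and was the gene closest in pattern to CBR4 (root mean square difference 0.345). HSD17B4, an enzyme of peroxisomal fatty acid oxidation, had -1.71 and -1.87 and fell with both agents (limma, adjusted p = 0.0323 and 0.0318). DHRS1 had -1.93 and -2.30 and fell with both (adjusted p = 0.0395 and 0.0284). QDPR, which regenerates tetrahydrobiopterin, had -2.18 and -2.08 and did not pass (adjusted p = 0.0608 and 0.0678). KDSR, an enzyme of sphingolipid synthesis, went the other way, with log2 ratios of 1.64 and 1.60, and rose with both agents (limma, adjusted p = 0.0132 and 0.0169).

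**Figure D4:**
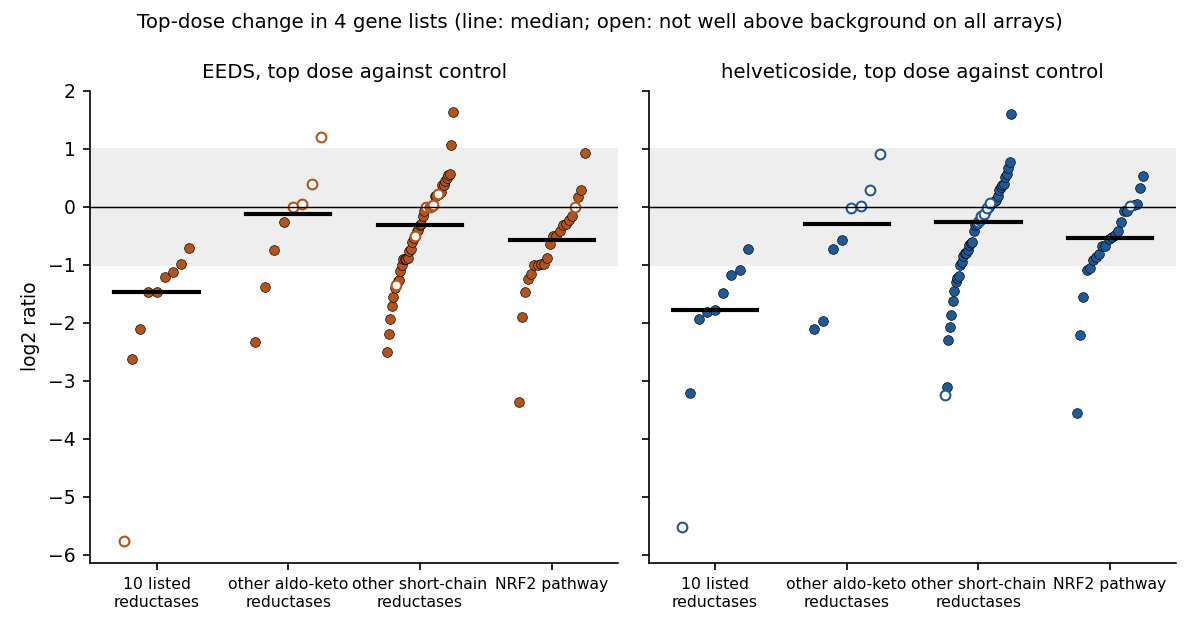
Log2 ratio of the top dose to its control (vertical axis) for every measured gene of the listed reductases and of 3 related lists, with EEDS (left) and helveticoside (right); bars are medians, open symbols are genes not well above background on all 8 arrays, and the grey band marks changes within 2-fold. The medians are -1.46 and -1.78 for the listed reductases and -0.13 and -0.29 for the other aldo-keto reductases, where the 4 filled symbols alone have medians of -1.06 and -1.35.

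Of 23 NRF2 pathway genes outside the reductases 22 had a probe. At the top dose 7 of 22 were more than 2-fold lower with EEDS (14.5% of all genes) and 5 of 22 with helveticoside (12.8%). With either agent 0 of 22 were more than 2-fold higher, against 13.3% of all genes with EEDS and 10.8% with helveticoside. The medians were -0.57 and -0.54, or -0.64 and -0.56 over the 21 read on all arrays. GCLC, GSR, PGD and GPX2 fell with the dose of both agents, and GCLM with that of EEDS (limma, adjusted p = 0.0205). The falling genes were 5 of 22 with EEDS (7.85% of all genes) and 4 of 22 with helveticoside (5.8%). GPX2, a glutathione peroxidase of epithelia, had top-dose log2 ratios of -3.36 and -3.55. PGD, which makes NADPH in the pentose phosphate pathway, had -1.89 and -2.21, GCLC, the catalytic subunit of glutathione synthesis, had -1.47 and -1.55, and GSR, glutathione reductase, had -1.24 and -1.08. Other well-known NRF2 targets did not pass the test with either agent. NQO1 had -0.41 and -0.68 (limma, adjusted p = 0.226 and 0.0600) and TXNRD1 had 0.92 and 0.53 (adjusted p = 0.0601 and 0.141). KEAP1 had -0.64 and -0.27 (adjusted p = 0.118 and 0.473), and the probe of NFE2L2, which encodes NRF2, was well above background on no array, so its level could not be read.

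The genes closest in pattern to some other members over the 6 treated arrays were, by root mean square difference in log2, NAP1L1 for AKR1C1 (0.0622), GGTLC1 for AKR1C3 (0.0869), RCCD1 for AKR1A1 (0.0915), AKR1B15 for AKR1B1 (0.101) and THAP7 for CBR1 (0.136). These are distances between 6 ratios that share 2 control arrays, given as a description.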

How the data were processed

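Each array's deposited file holds the intensity of every spot from Agilent Feature Extraction, made by the authors: a median signal, a local background, a background-subtracted processed signal, and flags for outliers, saturation and signal well above background. A deposited table of processed intensity values served as an alternative. Set against each array's background-subtracted median signal, it correlated on the log2 scale at r = 0.999 or more after rounding across probes, and its column medians were 120 to 121 in the EEDS series and 192 in the helveticoside series, so it is linear, uncentred and scaled within each series; its blanks lie almost wholly on probes under 1.4 times the local background. All 44495 spots per array were read, of which 43118 held probes. Outlier spots (246 to 331 per array) were left out, none was saturated, and spots of the same probe were averaged on the processed signal for 34127 probes (22 had outliers only). Quantile normalization over the 8 arrays and log2 followed. The transcript accessions of 24812 probes were matched to 19056 genes of GRCh38.p14, and the probe with the highest mean was taken for the 4797 genes with several. The 19046 genes kept had a signal of at least 1.4 times the background on 1 array or more of each series. For probes with at least 5 spots, the median SD between spots was 0.0687 to 0.0852 log2 per array. The number of arrays limits the precision.

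Slopes on the dose step were fitted with limma 3.58.1 (trend and robust, statmod 1.5.0, R 4.3.3), each series having its own intercept and slope (4 residual degrees of freedom), checked on simulated data, and adjusted over all genes by Benjamini-Hochberg (threshold 0.05). Other values came from Python 3.11.15 with numpy 2.4.6, pandas 2.3.3, scipy 1.17.1, matplotlib 3.10.9 and biopython 1.88. A fold against an array where the probe was not well above background was taken against the lowest signal of a probe that was. It was given as a bound that holds for the background-subtracted signal only. The members and lists were chosen with earlier results of these data known. All members were named, with up to 4 genes per direction from each list that were well above background on all arrays and past 2-fold the same way at both top doses, with the largest mean change, with NFE2L2, KEAP1, NQO1 and TXNRD1, and with the 1 gene most like each member (that of AKR1B10 is not reported here). KCNAB1, GCLM, AKR1E2, AKR7A3's place beside AKR7A2 and the second probes were described after their values were seen. No scan or slide information was used. The alternatives were 8 for the ratios and 12 for the slopes.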

Additional observations from a re-analysis of the deposited data

How the results depend on the processing

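Of 144 recomputed top-dose ratios of single genes, 144 stayed below 0, and 132 moved by less than the SD between the controls. Many of these could not differ from the reported ratio. A change of filter leaves the ratio of a kept gene as it was. The mean over all probes changes it only for AKR1B10 and AKR1C1, the members with a second probe. The counts past 2-fold lower ranged from 6 to 8 with EEDS (7 as reported) and from 7 to 8 with helveticoside (8 as reported), and no alternative put a member past 2-fold higher. Scaling to the 75th percentile moved the median of all genes to -0.36 at 20 μg/mL and -0.18 at 60 nM. CBR3 ranged from -6.53 with that scaling to -2.94 as scanned with EEDS, and was -2.55 in the deposited values with helveticoside, where CBR4 had -2.17.

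The number of members that fell with the dose (3 with each agent, against 7.85% and 5.8% of all genes) was larger under most other signal corrections. It was 6 with EEDS and 7 with helveticoside for the signal as scanned (9.85% and 7.26% of all genes) and for normexp (9.92% and 7.39%). It was also 6 and 7 for the well-above-background filter, but against 15.7% and 13% of the 13121 genes that filter kept. It was 7 and 6 for the deposited values (14.4% and 4.79%), and 5 with helveticoside for scaling to the 75th percentile (6.45%). It was 0 with each agent without the lowest, without the middle and without the top dose, and with only the 4 arrays of a series, fits with fewer arrays in which 0 of all 19046 genes passed and all 9 slopes stayed below 0. The cause of the other changes was not tested. The adjusted p of AKR1C3 ranged from 0.00643 to 0.200 with EEDS and from 0.00746 to 0.280 with helveticoside, and that of CBR3 from 0.000964 to 0.190 and from 0.00266 to 0.275. No slope difference passed after adjustment in any fit, and no slope rose. No paired analysis was possible because each dose had 1 array and the labels give no replicate numbers. Signal over background limits CBR3 at the top doses and NFE2L2 on all arrays.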
